A study of Mus musculus with 4 samples.

Results

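The Notch pathway was examined in cultured hair follicle stem cells (HFSCs) through 10 genes, all of which were found by gene symbol among the 24346 genes listed for each library. They comprise the receptors Notch1, Notch2 and Notch3, the ligands Jag1, Jag2 and Dll1, the DNA-binding factor Rbpj, and the target genes Hes1, Hey1 and Nrarp. The cells had been sorted as cells positive for both CD49f and CD34 from dorsal skin of adult C3H/HeN mice, the labels give no genetic change or drug treatment for either group, and the cells were passaged weekly in the serum-free keratinocyte medium M-CnT. Polyadenylated RNA was sequenced after 10 passages (10p-HFSCs, 2 libraries) and after 48 passages (48p-HFSCs, 2 libraries). The authors deposited FPKM values. By the paper's definition these scale the fragments of a gene by its exon length and by the mapped fragments of the library. A further scaling of the deposited values between libraries was not tested for. The labels do not say whether the libraries of a group came from separate cultures, so that p-values measure only the spread between these libraries, which may be technical.

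Notch signaling passes between touching cells. A Jagged or Delta ligand on one cell binds a Notch receptor on its neighbor, the receptor is cut by an ADAM protease and then by gamma-secretase, and the freed intracellular domain enters the nucleus, where it binds RBPJ and a Mastermind co-activator and switches on genes such as those of the HES and HEY repressors and NRARP, a small protein that limits the signal. In skin, Notch1 is known for driving epidermal cells out of the basal layer into differentiation, and Notch activity is needed to keep hair follicles intact.

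For 4 members the DNA just upstream of the transcription start is shown, since this is where RBPJ and HES proteins could act on the pathway's own genes. The sequences are those of RefSeq on GRCm38.p6, for which 8 of the 10 members were matched, while Hes1 and Hey1 were not. Of the 250 bases before each start, only those outside annotated exons are printed, in the direction of transcription. Capitals mark the hexamer TGGGAA bound by RBPJ, or its reverse complement TTCCCA, in Rbpj (chr5:53590096-53590213, plus strand). They mark the GC box GGGCGG or CCGCCC in Notch1 (chr2:26503825-26504072, minus strand) and the N-box CACNAG or CTNGTG, a site of HES repressors, in Nrarp (chr2:25180508-25180757, plus strand). The Jag1 stretch (chr2:137116645-137116770, minus strand) is shown because Jag1 carried the clearest change, and it held none of these motifs.
Jag1: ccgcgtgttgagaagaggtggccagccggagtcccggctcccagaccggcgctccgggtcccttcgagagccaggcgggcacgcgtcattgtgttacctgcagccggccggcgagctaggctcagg
Notch1: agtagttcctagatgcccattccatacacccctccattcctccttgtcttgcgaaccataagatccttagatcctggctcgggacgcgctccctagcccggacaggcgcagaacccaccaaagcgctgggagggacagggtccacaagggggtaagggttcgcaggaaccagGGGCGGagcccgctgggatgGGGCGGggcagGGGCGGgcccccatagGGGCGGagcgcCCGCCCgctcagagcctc
Nrarp: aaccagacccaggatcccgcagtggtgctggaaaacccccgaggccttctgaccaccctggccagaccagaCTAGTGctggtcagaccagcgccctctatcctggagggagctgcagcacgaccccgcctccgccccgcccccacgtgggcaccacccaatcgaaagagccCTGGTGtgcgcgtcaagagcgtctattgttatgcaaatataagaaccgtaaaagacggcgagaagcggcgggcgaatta
Rbpj: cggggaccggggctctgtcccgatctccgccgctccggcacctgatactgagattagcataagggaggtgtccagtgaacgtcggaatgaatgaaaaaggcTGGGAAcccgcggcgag
The 8 matched members have 10 windows of 250 bases. Over whole windows and both strands, the RBPJ hexamer was in 2 of the 10 windows of members, both of Rbpj, whose listed starts give overlapping windows that share a site, against 21.6% of the 32851 mouse promoters. The GC box was in 5 of the 10 windows, those of Notch1, Notch2, Notch3, Jag2 and Nrarp, against 32.7% of all promoters. The N-box was in 4 of the 10, those of Notch1, Notch2, Notch3 and Nrarp, against 36.7%. None of the 10 windows held the TATA box TATAAA, which 12.4% of all promoters held. Such matches describe the letters only, and binding was not measured.

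Genes were compared on the log2(FPKM + 1) scale with limma over the 11018 genes that reached an FPKM of 1 in at least 2 libraries, and calling a gene took both an adjusted p-value below 0.05 and a log2 difference of 1 or more. Over all genes, 10.8% were called higher in 48p-HFSCs and 9.15% were called lower (1189 and 1008 genes), and once all libraries had been rescaled to an equal FPKM sum (TPM) the split was 616 higher to 900 lower. With that rescaling the median log2 difference of all genes was -0.56, compared with -0.03 before it. The FPKM had summed to 581516 and 719012 in 10p-HFSCs, against 666018 and 1414950 in replicates 1 and 2 of 48p-HFSCs. The rescaling thus lowers replicate 2 of 48p-HFSCs relative to the other libraries. Relative to the first 10p-HFSC library, the depth estimated from the lowest FPKM values was 71.6% and 82.9% in the second 10p-HFSC and the first 48p-HFSC library and 46.7% in replicate 2 of 48p-HFSCs, where low values are least precise. This last library also differed from its replicate by at least 2-fold in 17.0% of genes, against 1.37% between the 10p-HFSC libraries. The differences between replicates followed transcript length, with Spearman's rho of -0.49 in 10p- and -0.37 in 48p-HFSCs across genes. Of 9 markers of HFSCs and basal epidermis, Krt5, Krt14, Krt15, Itga6 and Sox9 were above an FPKM of 8 in every library. Their levels were not stable. The mean of Itga6 rose from 26.1 to 90.0 and was called higher (limma adjusted p = 0.014). That of Sox9 fell from 44.9 to 14.3 and was called lower (limma adjusted p = 0.039). Krt15 was at 136 and 82.6 in 10p-HFSCs, against 425 and 18.8 in 48p-HFSCs. Krt5 and Krt14 were higher in both 48p-HFSC libraries but were not called. Cd34, Lhx2, Nfatc1 and Tcf7l1 were at most at 0.234 in any library. By quantitative PCR, the paper reports increases of Lhx2 and Sox9 after the long culture. Of the markers of other cell types, those of fibroblasts summed to 60.2 to 68.9 in 10p-HFSCs, against 0.249 to 0.307 in 48p-HFSCs, with Col1a2 at 67.6 and 59.3 and then at 0 in both 48p-HFSC libraries, and with Dcn, Lum and Thy1 at 0 in all libraries. Leukocyte markers summed to 0.641 to 0.694 and to 64.3 to 104, mostly Cd74, with Cd3e and Tyrobp at 0. Mural cell markers summed to 49.1 to 70.2 and to 84.5 to 96.6, mostly Mcam, with Rgs5 at 0, and endothelial, melanocyte and Schwann cell markers summed to at most 11.0 in any library, with Dct and Sox10 at 0. The part of these cell types in the results was not tested.

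Of the 10 members, the ligand Jag1 alone was called, higher in 48p-HFSCs, and none was called lower. Together, 9 members were tested, and Hey1 was not, as it was listed at 0 in all libraries. With 10.8% of all genes called higher and 9.15% lower, 1 call among 9 members is near the background. Jag1, Jag2, Notch1 and Notch3 had unadjusted p-values below 0.05, as did 4118 of the 11018 genes. For Notch1, Jag1, Jag2 and Dll1, each 48p-HFSC library was above each 10p-HFSC library, as was the case for 31.7% of all genes tested. Notch3 was the reverse, as were 34.3% of genes. The other tested members, Notch2, Rbpj, Hes1 and Nrarp, overlapped between groups. In bulk RNA, fewer cells that express a gene and less RNA per cell cannot be told apart.

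**Figure D1:**
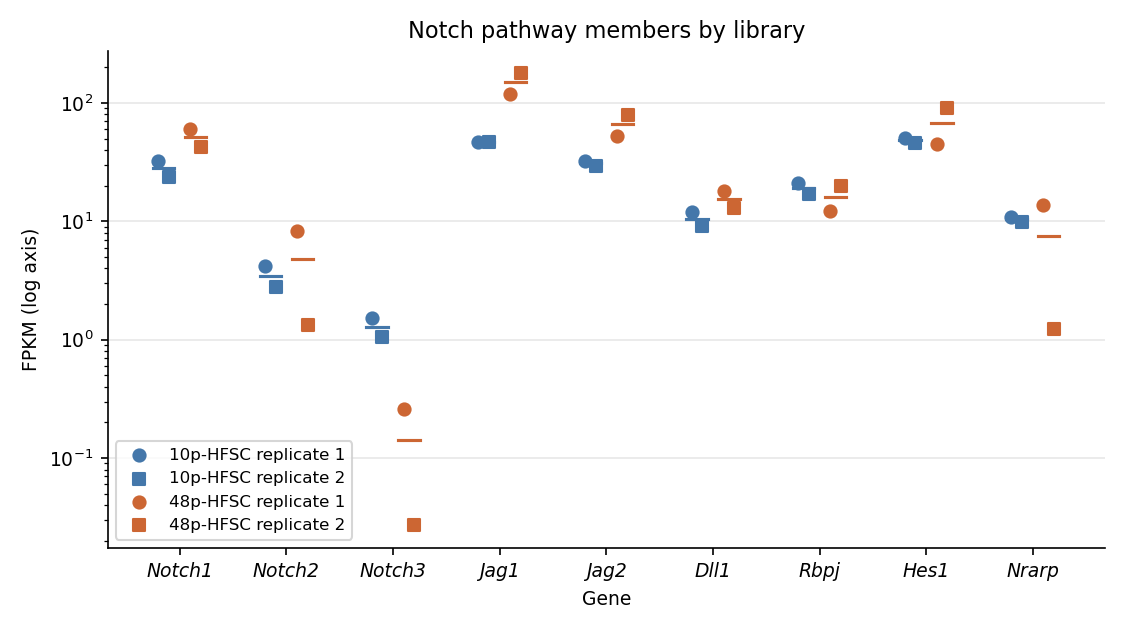
FPKM on a log axis of the 9 members with values above 0, with a circle for replicate 1, a square for replicate 2 and a short line for the mean of the 2 libraries of a group (blue, 10p-HFSCs; orange, 48p-HFSCs). Jag1 sits near 47 in both 10p-HFSC libraries and at 120 and 178 in 48p-HFSCs, while the 48p-HFSC libraries lie far apart for Notch2, Notch3 and Nrarp. Hey1, at 0 in all libraries, cannot be drawn on this axis.

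All 3 ligands had higher FPKM in both 48p-HFSC libraries than in either 10p-HFSC library. Under TPM rescaling, however, the log2 difference of Dll1 was -0.03, where the median of all genes was -0.56. Jag1, a ligand of Notch receptors on chromosome 2 of mm10 from 137081456 to 137116644, stood at 46.9043 and 46.9041 FPKM after 10 passages and at 120 and 178 FPKM in replicates 1 and 2 of 48p-HFSCs. The 10p-HFSC libraries were nearly equal and the 48p-HFSC libraries were both well above them. The mean rose 3.18-fold, from 46.9 to 149 ± 41.0 (SD, n = 2), a log2 difference of 1.62 (95% confidence interval 0.88 to 2.36, limma adjusted p = 0.017), and among the 1189 genes called higher Jag1 ranked 727th by size of the difference. The call was lost under TPM rescaling, where the log2 difference was 1.04 (limma adjusted p = 0.074), although relative to the median of all genes it was 1.61 there and 1.65 without the rescaling. It was also lost when either 10p-HFSC library was left out, with limma adjusted p-values of 0.27 without replicate 1 and 0.25 without replicate 2 and a log2 difference still at 1.62.

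Jag2, the second Jagged ligand, on chromosome 12 from 112907819 to 112929776, showed FPKM values of 32.5 and 29.6 in 10p-HFSCs, against 52.7 and 79.1 in 48p-HFSCs. The groups did not overlap, and the mean was 2.12 times as high in 48p-HFSCs. Its log2 difference of 1.03 (95% confidence interval 0.31 to 1.76) passed the fold limit, but its limma adjusted p of 0.058 missed the threshold. The paper, which used another method on these libraries, lists both Jag1 and Jag2 in an up-regulated group of its differentially expressed genes. With 1 library left out, the log2 difference of Jag2 ran from 0.75 to 1.32, the highest without replicate 1 of 48p-HFSCs. Dll1, the Delta ligand measured here, on chromosome 17 from 15367354 to 15376872, was at 11.98 and 9.12 in 10p-HFSCs, against 18.1 and 12.9 in 48p-HFSCs. Its lower 48p-HFSC library lay only a little above the higher 10p-HFSC library, and the log2 difference of 0.51 (95% confidence interval -0.23 to 1.25, limma adjusted p = 0.27) did not pass the threshold. Under TPM rescaling it was -0.03, but relative to the median of all genes it was 0.54 both with and without the rescaling.

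The makeup of the ligands within a library does not depend on how the libraries are scaled. Jag1 made up 51.3% and 54.8% of the summed FPKM of the 3 ligands in 10p-HFSCs, against 62.9% and 65.9% in 48p-HFSCs. Jag2 made up 35.6% and 34.5%, and then 27.6% and 29.3%. The share of Dll1 was 13.1% and 10.7%, and then 9.50% and 4.77%. Thus the Jag1 share was higher, and the shares of Jag2 and Dll1 were lower, in each 48p-HFSC library than in each 10p-HFSC library. The ratio of Jag1 to Jag2, whose longest transcripts are of like length at 5612 and 5106 bases, was 1.44 and 1.59 in 10p-HFSCs, against 2.28 and 2.25 in 48p-HFSCs. With 2 libraries against 2, an exact permutation test cannot give a two-sided p-value below 0.333, which was the value for each of these shares and for the ratio.

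**Figure D2:**
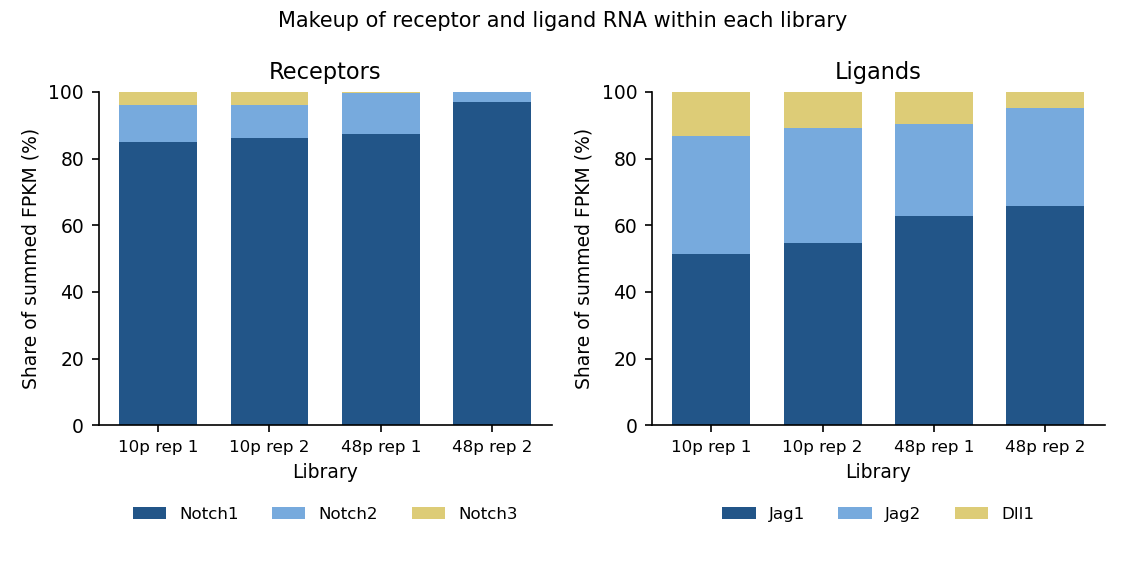
Share, in percent, of each receptor in the summed FPKM of Notch1, Notch2 and Notch3 (left) and of each ligand in that of Jag1, Jag2 and Dll1 (right), as stacked bars for each of the 4 libraries. Notch1 takes over 85% of receptor FPKM in every library, Notch3 shrinks to under 1% in 48p-HFSCs, and Jag1 grows from 51.3% and 54.8% to 62.9% and 65.9% of ligand FPKM.

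Among the receptors, no member was called. Notch1, the main Notch receptor of the epidermis, on chromosome 2 from 26457903 to 26516663, showed FPKM values of 32.5 and 23.9 in 10p-HFSCs, against 60.6 and 42.7 in 48p-HFSCs. In both groups replicate 1 was the higher library, and the groups did not overlap. The log2 difference was 0.85 (95% confidence interval 0.10 to 1.59, limma adjusted p = 0.10). Under TPM rescaling it was 0.28, but relative to the median of all genes it was 0.85 there and 0.88 without the rescaling. A further alternative, chosen with the values known, took the trends with transcript length and GC content out of each library. With it the log2 difference was 1.16 and passed the threshold (limma adjusted p = 0.018). The longest Notch1 transcript has 9488 bases.

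Notch2, on chromosome 3 from 98013527 to 98150361, had FPKM values of 4.16 and 2.81 in 10p-HFSCs, against 8.36 and 1.32 in 48p-HFSCs. One 48p-HFSC library was thus above and the other below both 10p-HFSC libraries, 6.33-fold apart, and 1.32% of all genes differed as much between these libraries on the log2(FPKM + 1) scale. The log2 difference was 0.07 (95% confidence interval -1.53 to 1.68, limma adjusted p = 0.95). It was 1.08 without replicate 2 and -0.93 without replicate 1 of 48p-HFSCs, so that no direction can be given.

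Notch3, a receptor best known from the smooth muscle cells of vessels, on chromosome 17 from 32120820 to 32166852, had the lowest level among the receptors. Its FPKM was 1.51 and 1.05 in 10p-HFSCs, against 0.259 and 0.0271 in 48p-HFSCs. Both 48p-HFSC libraries were below both 10p-HFSC libraries, and the ratio of the means was 8.95 in favor of 10p-HFSCs. The log2 difference of -0.996 (95% confidence interval -1.60 to -0.40, limma adjusted p = 0.039) stayed just short of the fold limit, and with a pseudocount of 0.1 it was -2.67 and Notch3 was called lower (limma adjusted p = 0.034). Notch3 passed the filter through its 10p-HFSC values only, so that being among the tested genes already required its higher values there, and without the filter its adjusted p was 0.040. The difference ran from -1.14 to -0.85 with 1 library left out. With the length and GC trends taken out, the difference was -0.66, with a limma adjusted p of 0.093. Of the 6 mural cell markers, Mcam was between 47.9 and 85.2 in all libraries, Des was at 0.649 and 0.930 in 10p-HFSCs, against 10.8 and 10.7 in 48p-HFSCs, and Rgs5 was at 0, while Acta2, Cspg4 and Pdgfrb were at most at 0.871 in any library.

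As a share, Notch1 made up 85.1% and 86.1% of the FPKM of the 3 receptors in 10p-HFSCs, against 87.5% and 96.9% in 48p-HFSCs. The Notch3 share was 3.96% and 3.78%, and then 0.374% and 0.0614%. The Notch2 share overlapped between groups, at 10.9% and 10.1% and then 12.1% and 3.0%. The ratio of summed ligand to summed receptor FPKM was 2.40 and 3.08 in 10p-HFSCs, against 2.76 and 6.13 in 48p-HFSCs. This ratio overlapped between groups as well, and its high value came from replicate 2 of 48p-HFSCs.

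**Figure D3:**
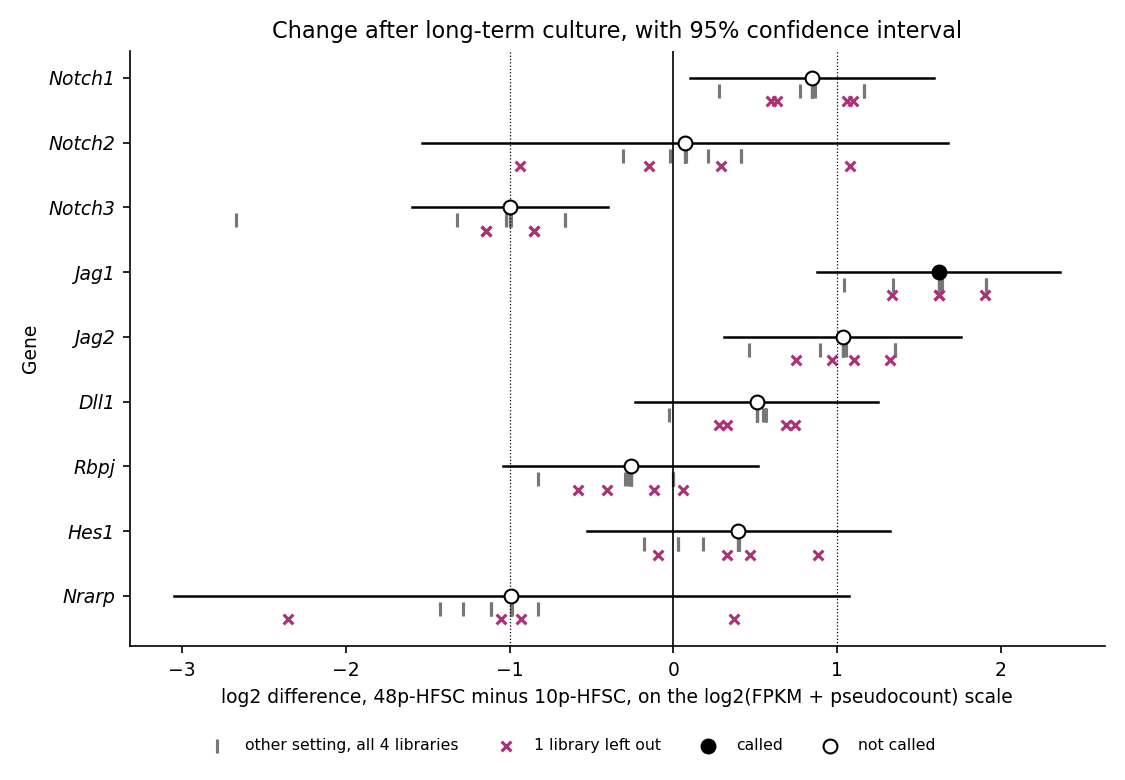
Log2 difference between 48p- and 10p-HFSCs for the 9 tested members (circles, filled where called) with the 95% confidence interval from limma (lines), on the log2(FPKM + 1) scale. Gray ticks give the difference under 9 other settings on all 4 libraries, among them a pseudocount of 0.1, and crosses give it with 1 library left out; dotted lines mark a log2 difference of 1 in either direction. Notch1, Jag1 and Jag2 stay above 0 and Notch3 stays below 0 in every setting drawn, while each of the other members has values on either side of 0.

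Rbpj, the factor through which all Notch receptors act on DNA, on chromosome 5 from 53466152 to 53657362, showed FPKM values of 21.0 and 17.0 in 10p-HFSCs, against 12.3 and 19.7 in 48p-HFSCs. The second 48p-HFSC library fell between the 10p-HFSC libraries. The log2 difference was -0.26 (95% confidence interval -1.04 to 0.52, limma adjusted p = 0.58). Under TPM rescaling it was -0.83, but relative to the median of all genes it was -0.26 there and -0.23 without the rescaling.

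None of the target genes was called. Hes1, a repressor that is a direct target of Notch in many tissues, on chromosome 16 from 30064384 to 30067796, had FPKM values of 50.8 and 46.1 in 10p-HFSCs, against 45.3 and 90.3 in 48p-HFSCs. One 48p-HFSC library lay below both 10p-HFSC libraries and the other above them. The log2 difference was 0.40 (95% confidence interval -0.53 to 1.32, limma adjusted p = 0.48), and it was 0.027 with the length and GC trends taken out. Under TPM rescaling it was -0.18, and relative to the median of all genes it was 0.38 there and 0.43 without the rescaling. Within a library, the ratio of Hes1 to Rbpj was 2.42 and 2.71 in 10p-HFSCs, against 3.68 and 4.58 in 48p-HFSCs. This ratio did not overlap (exact permutation p = 0.333, the smallest possible). The longest transcripts of Hes1 and Rbpj differ in length, however, at 1468 and 5485 bases, and the differences between replicates followed transcript length. With the length and GC trends taken out, the log2 difference of Rbpj was 0.00032, next to 0.027 for Hes1. Nrarp, the feedback inhibitor, on chromosome 2 from 25180758 to 25183339, was at 10.9 and 9.93 in 10p-HFSCs, against 13.8 and 1.24 in 48p-HFSCs. The 48p-HFSC libraries were 11.1-fold apart in FPKM, and only 0.363% of genes differed as much between them on the log2(FPKM + 1) scale. Its log2 difference of -0.99 (95% confidence interval -3.05 to 1.07, limma adjusted p = 0.43) was 0.37 without replicate 2 of 48p-HFSCs, and -2.35 and called lower without replicate 1 (limma adjusted p = 0.011). Hey1, a HEY repressor on chromosome 3 from 8663359 to 8667256, was listed at 0 in all 4 libraries. The ratio of Hes1 to Nrarp, the pair of targets with values above 0, was 4.66 and 4.64 in 10p-HFSCs, but 3.29 and 73.1 in 48p-HFSCs.

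FPKM is scaled by exon length, so that levels can also be ordered between genes. In 10p-HFSCs the order was Hes1 and Jag1, then Jag2 and Notch1, then Rbpj, then Dll1 and Nrarp, then Notch2, Notch3 and Hey1, and the genes joined by "and" up to Nrarp overlapped in their libraries. In 48p-HFSCs Jag1 stood alone at the top in both libraries, at or above 93.5% of the genes tested. Jag2, Hes1 and Notch1 came next and overlapped, from 42.7 to 90.3, followed by Rbpj, Dll1, Nrarp and Notch2, each of which overlapped with the next, and then by Notch3. Notch1, Notch3, Dll1, Rbpj and Nrarp have transcripts annotated on the opposite strand, and since the strand setting of the counting is not given in the sources used here, reads of those transcripts cannot be told apart from theirs.

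Most other genes of the pathway were not called. Of 69 such genes in the libraries, 49 were tested, 2 were called higher and 7 lower, and 10 were at 0 in all libraries. Over all genes, 19.9% were called in either direction, so that 9 calls among 49 tested genes are near that background. For 23 of the 49, both 48p-HFSC libraries were below both 10p-HFSC libraries, and for 7 they were above, compared with 34.3% and 31.7% of all genes. Their median log2 difference was -0.32, compared with -0.03 for all genes. Of the 9 calls, those of Egfl7 and Bhlhe41 held in all 10 settings that used all 4 libraries, although Bhlhe41 passed the filter only through its 10p-HFSC values, whereas without the filter on low values 3 genes of these lists were called and under TPM rescaling 5, and when either 10p-HFSC library was left out Bhlhe41 was the one call that remained.

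The other receptor and ligands of the family were hardly detected. Notch4 had an FPKM between 0.131 and 0.544, Dll4 between 0.0182 and 0.129, and Dll3 was at 0 in 10p-HFSCs, against 0.0602 and 0.0534 in 48p-HFSCs. Egfl7, a secreted protein that can bind Notch and is best known from endothelium, fell from 24.9 ± 6.21 to 3.28 ± 0.644 (SD, n = 2), a log2 difference of -2.58 (limma adjusted p = 0.0040). Of the 6 endothelial markers, Pecam1 was at 2.38 and 2.24 in 10p-HFSCs, against 1.01 and 0.172 in 48p-HFSCs. Tek was at 0.169 and 0.0471 and then at 0.341 and 0.120. Cdh5 was at most at 0.0156 in any library, and Kdr, Tie1 and Emcn were at most at 0.321. Among 8 tested genes for sugar modification of the receptors and for ligand uptake, Neurl3, a ubiquitin ligase of the Neuralized family, was called higher. It was at 0.0411 and 0 in 10p-HFSCs, against 2.68 and 1.01 in 48p-HFSCs, and it passed the filter only through the latter. The call was lost without the filter and under TPM rescaling.

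Of 9 tested genes for receptor cleavage, 1 was called. Psen2, a catalytic subunit of gamma-secretase, fell from 14.1 ± 0.439 to 5.33 ± 0.381 (SD, n = 2), a log2 difference of -1.25 (limma adjusted p = 0.024), and lost the call under TPM rescaling. The median log2 difference of this list was -0.03. Of 10 tested genes for receptor trafficking and turnover, Nedd4 and Itch, related ubiquitin ligases that can act on Notch, were called lower. Nedd4 fell from 195 ± 46.0 to 65.2 ± 33.0 (SD, n = 2) and Itch from 19.9 ± 6.50 to 7.48 ± 1.61 (SD, n = 2), with limma adjusted p-values of 0.047 and 0.045. Neither was called without the filter or with a constant variance prior, and Itch was not called under TPM rescaling.

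The nuclear partners gave the lowest median among the lists with at least 2 tested genes. All 14 were tested, 2 were called lower and none higher, and for 10 of them both 48p-HFSC libraries lay below both 10p-HFSC libraries, as for 34.3% of all genes. The median log2 difference was -0.67. Maml2, a Mastermind co-activator, had FPKM values of 6.02 and 6.46 in 10p-HFSCs, against 1.93 and 0 in 48p-HFSCs, a log2 difference of -2.08 (limma adjusted p = 0.040). Crebbp, a histone acetyltransferase, was at 7.36 and 4.38 and then at 1.95 and 0.702, a log2 difference of -1.58 (limma adjusted p = 0.039). The calls of both were lost with a pseudocount of 0.1 and without the filter, and that of Crebbp also under TPM rescaling.

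**Figure D4:**
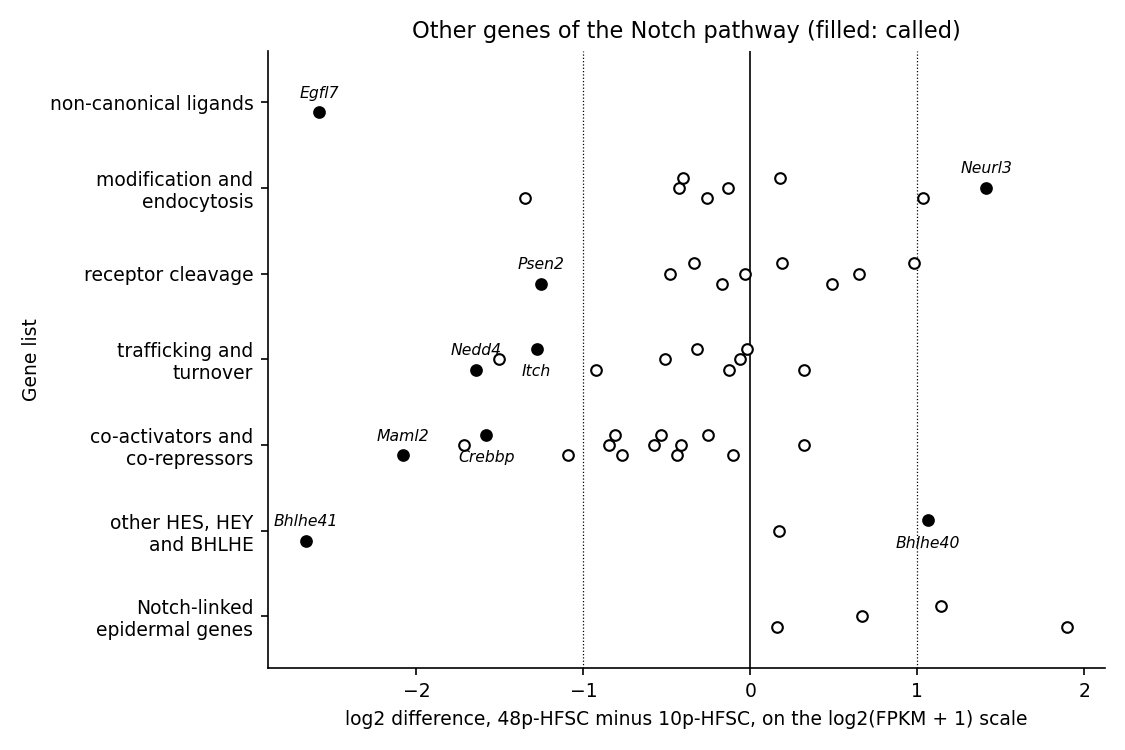
Log2 difference between 48p- and 10p-HFSCs on the log2(FPKM + 1) scale for the 49 tested genes of the other pathway lists, one point per gene and one row per list, filled and named where called. The nuclear co-activators and co-repressors lie mostly to the left of 0, with a median of -0.67, and the 4 epidermal genes have a median of 0.91.

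Of the other HES and HEY genes and their relatives, most were absent or nearly so. Hes2, Hes5, Heyl and Helt were listed at 0 in all libraries, Hes3, Hes6 and Hey2 were at most at 0.277, and Hes7 was at 1.54 and 1.88 in 10p-HFSCs, against 1.32 and 3.02 in 48p-HFSCs. The related repressors Bhlhe40 and Bhlhe41, which also act in the circadian clock, were called in opposite directions. Bhlhe40 rose from 23.9 ± 2.68 to 51.3 ± 8.69 (SD, n = 2), a log2 difference of 1.06 (limma adjusted p = 0.040), a call lost without the filter, under TPM rescaling and under quantile normalization. Bhlhe41 was at 5.99 and 4.73 in 10p-HFSCs while both libraries of 48p-HFSCs listed it at 0 (limma adjusted p = 0.0019), and it passed the filter only through the former.

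Of 4 tested epidermal genes tied to Notch, none was called by limma, and Cdkn1a alone had an unadjusted p-value below 0.05. The cell cycle inhibitor Cdkn1a was at 91.4 and 109.7 in 10p-HFSCs, against 186 and 265 in 48p-HFSCs, with a limma adjusted p of 0.059. The envelope protein gene Ivl was at 8.12 and 8.49 and then at 84.1 and 13.1, with a limma adjusted p of 0.14. The basal regulator Trp63 overlapped between groups, at 60.4 and 42.0 and then at 124 and 52.7, and so did Myc. Krt1 and Krt10, the keratins of the first suprabasal layer, were listed at 0 in all 4 libraries.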

How the data were processed

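The 4 libraries, 2 of 10p-HFSCs and 2 of 48p-HFSCs, were made with a stranded mRNA kit and sequenced in single-end mode. The authors mapped reads to mm10 and deposited FPKM values per gene symbol and library. The submitters' processing notes list TopHat2 2.1.1, Bowtie2 2.2.8, SAMtools 0.1.18 and Cuffdiff 2.2.1, while the paper's methods give other releases of Bowtie2 and SAMtools and name Cufflinks. The annotation used is not given in the sources used here.

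FPKM values are not counts, so log2(FPKM + 1) was compared with limma 3.58.1 in R 4.3.3 (two-sided, variance trend, no block) over the 11018 genes that reached 1 FPKM in 2 or more libraries, with Benjamini-Hochberg adjustment. The fit was run on simulated data in which the noise of a gene was independent and of equal size in all libraries. The unequal spread of the groups and the correlation of same-numbered libraries were not simulated. That run therefore does not show how the fit behaves under them. Read totals were not known. Relative depth was the inverse of the commonest ratio between libraries of their low FPKM values, so no counting intervals are given. Gene positions and the lengths and GC content of the longest transcripts came from GENCODE M21 (GRCm38, the same assembly as mm10), and promoters from RefSeq on GRCm38.p6.

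All 10 members are named, as are genes of the other pathway lists that were called, and all of Notch4, Dll3, Dll4 and the HES, HEY and BHLHE list. For Jag1, the 3 genes nearest to it in Euclidean distance are named. Other cell type markers and genes not called but named beside a list were chosen after their values were seen. One gene of the epidermal list is not reported here and is left out of the counts of the lists. The members and lists were chosen with earlier results of these data known. Alternatives were another pseudocount, no filter, TPM rescaling, quantile normalization, median-of-ratios scaling, a variance prior without trend, the replicate number as a block, and each library left out. A correction by natural splines of transcript length and GC content, with and without the block, was added after seeing the data.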

Additional observations from a re-analysis of the deposited data

How the results depend on the processing

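Over 117 recomputed differences of members, 92 kept their direction and their side of the threshold. Many of these could not change direction. Without the filter, with the variance prior without trend and with the replicate block, the differences equalled the main ones and only p-values could move. The block likewise left the differences after the length and GC correction as they were. This count therefore does not measure how stable the directions are. Jag1, the 1 member called, was joined by Notch3 with a pseudocount of 0.1 and under quantile normalization (2 called), by Jag2 with the replicate number as a block (2 called, Jag2 limma adjusted p = 0.013), and by Jag2 and Notch1 after the length and GC correction, with or without the block (3 called). Under TPM rescaling Notch3 was called and Jag1 was not. Relative to the median of all genes, Notch3 was at -0.76 there and at -0.96 without the rescaling, and Jag1 at 1.61 and 1.65. With 1 library left out, 0 to 4 members were called, 0 without either 10p-HFSC library and 4 without replicate 1 of 48p-HFSCs (Jag1, Jag2, Notch3 and Nrarp). Direction turned under TPM rescaling for Notch2 (-0.30), Dll1 (-0.026) and Hes1 (-0.18), which relative to the median of all genes were at 0.26, 0.54 and 0.38, on the same side as without it, with a pseudocount of 0.1 for Notch2 (-0.022), and after the length and GC correction for Rbpj (0.00032, the same with the block). With 1 library left out, log2 differences ran from -0.93 to 1.08 for Notch2, -0.58 to 0.058 for Rbpj, -0.092 to 0.89 for Hes1 and -2.35 to 0.37 for Nrarp. The cause was not tested.

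Of the other pathway genes, 9 were called, compared with 3 without the filter, 5 under TPM rescaling, 16 with the replicate block, Cdkn1a and Ivl among them, and 1 to 15 with 1 library left out. Over all genes, 1189 were called higher and 1008 lower, compared with 637 lower without the filter, 616 higher under TPM rescaling, and 35 to 1936 higher and 140 to 1875 lower with 1 library left out. Leaving out a library leaves its group with 1 sample, which is then taken to vary like the other group. Calls over all genes were likewise fewest without a 10p-HFSC library and most without replicate 1 of 48p-HFSCs. The numbers of members called in these fits thus moved with those of all genes, and cannot be read as specific to the members. The replicate numbers are shared between groups, but the labels do not say what they mark, so the block is an alternative. Deviations of same-numbered libraries had a correlation of 0.41 across genes, and with the block 1613 genes were called higher and 1497 lower. After the length and GC correction, 1224 of 10612 genes were called higher and 1031 lower, and 1474 and 1290 with the block as well. The members called in these settings have to be read against those counts.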

Other observations

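The genes whose values lay closest to those of Jag1, by Euclidean distance over log2(FPKM + 1) in the 4 libraries, were Ctsh (0.107), Reep4 (0.259) and Psme1 (0.315). Ctsh, which encodes the lysosomal protease cathepsin H, had an FPKM of 48.9424 and 48.9212 in 10p-HFSCs, against 125 and 173 in 48p-HFSCs. Psme1, a subunit of the proteasome activator, was at 40.5 and 51.6 in 10p-HFSCs, against 137 and 186 in 48p-HFSCs. With 4 libraries in 2 groups, many genes with a like level and a like difference lie close to each other.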
